A study of Mus musculus with 20 samples.

Results

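Glycolysis turns glucose into pyruvate in the cytosol, and the transcripts described here belong to 10 genes on that route: the glucose transporter gene Slc2a1, the hexokinases Hk1, Hk2 and Hk3, the phosphofructokinases Pfkl and Pfkp with the regulatory enzyme Pfkfb3, the aldolase Aldoa, the pyruvate kinase Pkm and the lactate dehydrogenase Ldha. They were taken by symbol from a table of 14776 genes, and 10 of 10 were found there and passed the filter on low values. Epididymal white fat (eWAT) was sampled from 20 mice, all C57BL/6J males that were 6 weeks old when feeding began. The NC group (6 mice) ate maintenance chow, and the list of groups in the methods names no gavage for it. The HFD group (7 mice) ate a high-fat diet for 14 weeks and then received saline by gavage for 6 weeks with the diet continued. The SZ-A group (7 mice) had the same diet and times and received Ramulus Mori (Sangzhi) alkaloids from mulberry twig in place of saline. Food was withheld overnight before the tissue was taken. The values are FPKM, fragments counted on a gene scaled to its exon length and to a size set for each library. Gene positions are those of GRCm38.

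Each gene on this route has a known place. Glucose enters through carriers of the SLC2A family, and the insulin-responsive carrier of fat and muscle is Slc2a4 (GLUT4), while Slc2a1 (GLUT1) works without insulin. Hexokinase then traps glucose as glucose 6-phosphate. HK1 is found in most cells, HK2 is the insulin-responsive form of muscle and fat, and HK3 is found mainly in myeloid cells such as macrophages and neutrophils. In obese fat, macrophages accumulate around dying adipocytes, so that eWAT becomes a mixture in which the myeloid and the adipocyte isoforms are read together. In RNA from whole tissue, fewer cells of a type and less RNA per cell cannot be told apart.

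Some libraries stood apart from their group. NC 6 held 26.6 FPKM of the adipocyte hormone gene Adipoq and 3.59 FPKM of the lipid-droplet gene Plin1, against 859 to 2278 and 118 to 347 FPKM in the other NC mice, so the defining markers of the labelled tissue were nearly absent from it. The same library held 452 FPKM of the epithelial keratin gene Krt18 and 420 FPKM of Adgrg2, a receptor of the epididymal duct. Krt18 was also high in NC 1 (454 FPKM), NC 2 (150), SZ-A 2 (119) and SZ-A 7 (168), and was at most 3.23 FPKM in the HFD mice. Only 2 of 13 epididymis markers were in the table, and their sum ran from 35.8 to 872 FPKM for NC, from 1.74 to 4.22 for HFD and from 1.84 to 222 for SZ-A. These 2 markers, Krt18 and Adgrg2, did not go together in each mouse. Adgrg2 was at 5.69 FPKM in NC 1, 10.3 in NC 2 and 5.84 in SZ-A 7, and at 103 in SZ-A 2. It was at 30.0 FPKM in NC 3, whose Krt18 was 5.85 FPKM. Both markers fell in HFD against NC, and in SZ-A against HFD Adgrg2 rose and Krt18 was not called. SZ-A 5 had the largest share of mitochondrial reads, 11.6%. For HFD against NC, the difference of each of the 10 genes is therefore given also without NC 6. The number of the 10 genes called is given also without the 5 mice whose Krt18 was above 100 FPKM. Counts over other gene lists are given without NC 6 where leaving it out moved them by more than 1.5 times. The genes of the table held between 13567666 and 19388619 reads per mouse.

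Compared with NC, Hk3, Pfkp, Pkm and Aldoa were up-regulated and Hk2 was down-regulated in the eWAT of HFD mice. Hk3 changed most among the 10 genes, from a mean of 0.657 ± 0.470 FPKM in NC (SD, n = 6) to 53.2 ± 22.1 FPKM in HFD (SD, n = 7). In SZ-A mice, Hk3, Pfkp and Pkm were lower and Hk2 was higher than in HFD mice, and of the 10 genes only Hk3 differed from NC past the threshold. In SZ-A against HFD, the call of Hk3 held in each of 26 alternatives of processing or of mice left out. The call of Pkm was lost in 14 of these alternatives, that of Hk2 in 2 and that of Pfkp in 1. Hk1, Pfkl, Pfkfb3, Ldha and Slc2a1 passed the threshold in none of the 3 comparisons.

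A gene was called when its adjusted p was under 0.05 in limma's moderated test on log2(FPKM + 1), adjusted over all genes tested. In HFD against NC, 4 of the 10 genes were called higher and 1 lower, beside 21.0% and 20.1% of the 14706 genes tested. When a log2 difference past 1.5 was also required, Hk3 remained on the higher side and Hk2 on the lower side, against 5.43% and 2.54% of all genes. The groups did not overlap for Hk3 and Pfkp, both higher in HFD, where 12.7% of all genes were higher and 7.77% lower without overlap. The median difference over the 10 genes was 0.48, and over all genes it was -0.04. Without NC 6 the counts were again 4 and 1. Of the 5 mice high in Krt18, NC 1, NC 2 and NC 6 belong to this comparison. Leaving them out set NC 3, NC 4 and NC 5 against all HFD mice. Then 7 of the 10 genes were called, and the added genes were Hk1 (0.63, adjusted p = 0.021) and Pfkfb3 (-0.97, adjusted p = 0.037). The number called over all genes stayed within 1.5 times of the 6047 called with all mice.

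In SZ-A against HFD, 1 of the 10 genes was called higher and 3 lower, beside 9.47% and 13.3% of the 14695 genes tested. Past a log2 difference of 1.5 there were 0 of the 10 genes higher and 1 lower, which was Hk3, beside 0.306% and 0.558% of all genes. The SZ-A and HFD mice overlapped for each of the 10 genes, while 2.07% of all genes were higher and 4.01% lower without overlap. The median difference was -0.18 over the 10 genes and 0.03 over all genes. Without SZ-A 2 and SZ-A 7, the SZ-A mice high in Krt18, 3 of the 10 genes were called, Hk3 and Pfkp lower and Pfkfb3 higher. The number called over all genes then stayed within 1.5 times of the 3349 called with all mice. In SZ-A against NC, Hk3 was the 1 gene called of 10 and was higher, beside 4.15% of 14718 genes called higher and 0.455% called lower. It also passed the log2 difference of 1.5, as did 1.73% of all genes on the higher side and 0.0544% on the lower side. Its groups did not overlap, as was seen for 3.22% of all genes on the higher side and 0.347% on the lower side. The median difference here was 0.46 over the 10 genes and -0.00 over all genes. Hk3 was called also without NC 6 (3.28, adjusted p = 4.6e-04) and without the 5 mice high in Krt18. The latter left NC 3, NC 4 and NC 5 against SZ-A 1, SZ-A 3, SZ-A 4, SZ-A 5 and SZ-A 6. Over all genes 180 were then called, against 678 with all mice. The other differences from NC ran from -0.67 for Hk2 (adjusted p = 0.29) to 0.83 for Pfkp (adjusted p = 0.13), and Pkm differed by 0.65 (adjusted p = 0.20), Aldoa by 0.45 (adjusted p = 0.23) and Ldha by 0.46 (adjusted p = 0.42). HFD against NC and SZ-A against HFD share the HFD mice, so an unusual HFD value moves both differences in opposite directions.

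**Figure D1:**
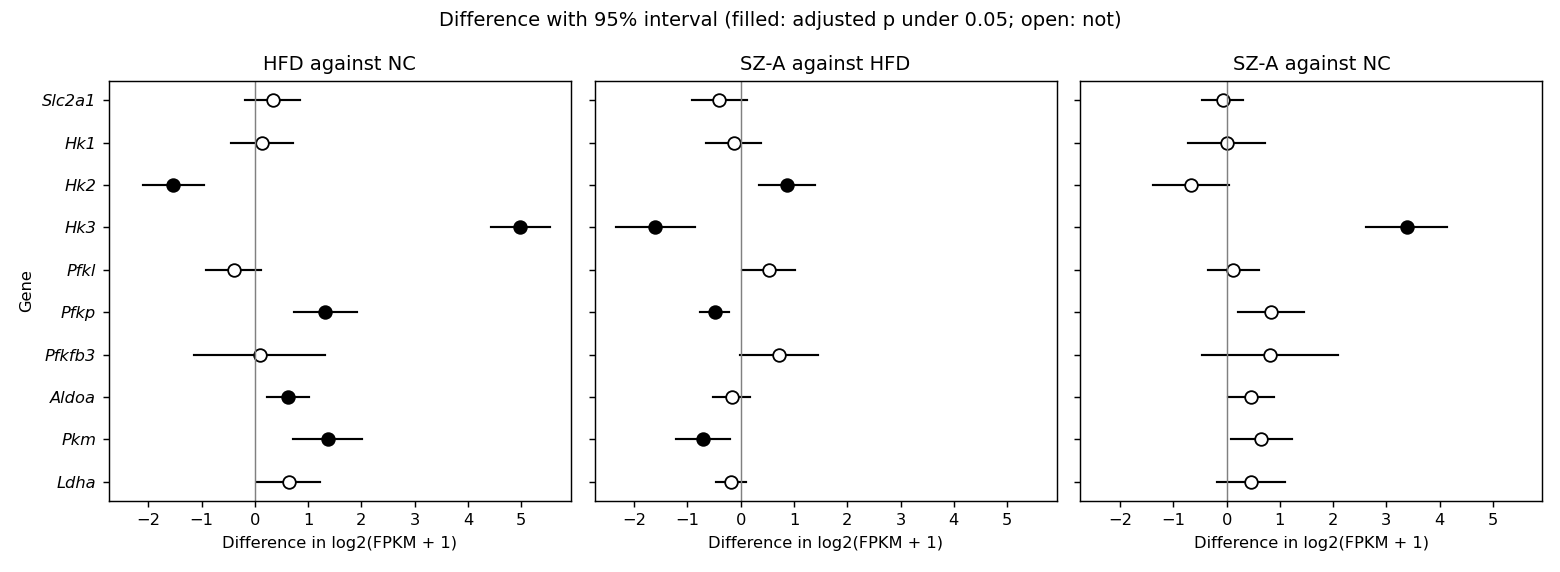
Difference in log2(FPKM + 1) of each of the 10 genes (rows) in the 3 comparisons (panels), with the 95% interval as a line. Filled points passed an adjusted p of 0.05. Hk3 lies at 4.98, -1.60 and 3.38 and Hk2 at -1.54, 0.87 and -0.67.

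Slc2a1, the gene of the insulin-independent glucose carrier GLUT1 (chromosome 4, 119108711 to 119137983), was at 5.69, 7.63 and 9.57 FPKM for NC (lowest, median and highest mouse), at 5.48, 8.60 and 18.1 for HFD and at 4.59, 7.23 and 10.8 for SZ-A. HFD 1 and HFD 5 held 17.3 and 18.1 FPKM and the other HFD mice at most 9.28, so the groups overlapped. The log2 difference of HFD against NC was 0.33 ± 0.24 (SE, adjusted p = 0.29) and was again 0.33 without NC 6 (adjusted p = 0.31), and SZ-A mice differed from HFD mice by -0.40 ± 0.24 (SE, adjusted p = 0.24). HFD 1 and HFD 5 also had the largest macrophage marker sums (11162 and 8273 FPKM over 15 genes) and the smallest adipocyte marker sums of the HFD mice (997 and 1907 FPKM over 12 genes). The part of cell composition in the Slc2a1 values was not tested.

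Hk3 (chromosome 13, 55005985 to 55021385, minus strand), the hexokinase of myeloid cells, was at 0.130, 0.597 and 1.45 FPKM for NC (lowest, median and highest mouse), at 30.6, 47.3 and 92.0 for HFD and at 8.47, 14.7 and 41.0 for SZ-A. Each HFD and each SZ-A mouse was above each NC mouse, whereas 2 SZ-A mice, SZ-A 5 and SZ-A 6 at 32.5 and 41.0 FPKM, lay within the HFD range. The NC values rest on 7 to 86 reads per mouse, and the HFD values on 2010 to 5941. The log2 difference of HFD against NC was 4.98 ± 0.26 (SE, adjusted p = 2.1e-08), and 4.88 without NC 6. Since the pseudocount of 1 exceeds most NC values, this difference understates the change, and it was 6.58 with a pseudocount of 0.01. With SZ-A the log2 difference of Hk3 from HFD was -1.60 ± 0.35 (SE, adjusted p = 0.0055), and SZ-A mice lay above NC by 3.38 ± 0.35 (SE, adjusted p = 2.1e-04).

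Hk2 (chromosome 6, 82725025 to 82774454, minus strand), the insulin-responsive hexokinase of fat and muscle, fell where Hk3 rose. It was at 7.99, 17.2 and 30.5 FPKM for NC, at 3.94, 5.16 and 8.66 for HFD and at 3.89, 12.5 and 17.4 for SZ-A. The HFD mice lay below the NC mice except that the highest HFD mouse (8.66 FPKM) was above the lowest NC mouse (7.99 FPKM). In SZ-A, 5 of 7 mice were above all HFD mice, and SZ-A 5 held the lowest value, 3.89 FPKM. Hk2 fell in HFD against NC by 1.54 ± 0.27 on the log2 scale (SE, adjusted p = 5.0e-04), and the difference was -1.38 without NC 6 (adjusted p = 6.1e-04). It rose in SZ-A against HFD by 0.87 ± 0.25 (SE, adjusted p = 0.022).

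Within NC, Hk2 was highest in the mice with high Krt18. NC 6, the library with the lowest Adipoq, held the highest Hk2 (30.5 FPKM), followed by NC 1 (27.4 FPKM) and NC 2, and these are the 3 NC mice with Krt18 above 100 FPKM. Without the 5 mice high in Krt18, Hk2 was again lower in HFD than in NC (-1.01, adjusted p = 0.0041), and its difference in SZ-A against HFD was 0.72 (adjusted p = 0.065), which missed the threshold. The call in SZ-A against HFD was also missed with the exact permutation test adjusted over all genes (adjusted p = 0.052). SZ-A 4, with 17.4 FPKM of Hk2 and 0.277 FPKM of Krt18, had the highest Hk2 of its group. The part of other tissue in the Hk2 values was not tested.

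Hk1 (chromosome 10, 62268855 to 62379908, minus strand), the hexokinase found in most cells, was at 4.24, 8.03 and 20.5 FPKM for NC, at 6.51, 9.96 and 12.9 for HFD and at 5.66, 7.55 and 23.5 for SZ-A. The 3 groups overlapped over most of their range, and the 2 highest values came from NC 1 and SZ-A 7. The log2 differences were 0.13 ± 0.27 in HFD against NC (SE, adjusted p = 0.72) and -0.13 ± 0.24 in SZ-A against HFD (SE, adjusted p = 0.72). Their 95% intervals were -0.44 to 0.71 and -0.64 to 0.38. Without NC 6 the first difference was 0.17 (adjusted p = 0.64). NC 1 and SZ-A 7 also held the highest levels of Pgam2, the muscle and sperm form of phosphoglycerate mutase, at 29.7 and 39.6 FPKM, against at most 9.07 FPKM in the other mice.

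**Figure D2:**
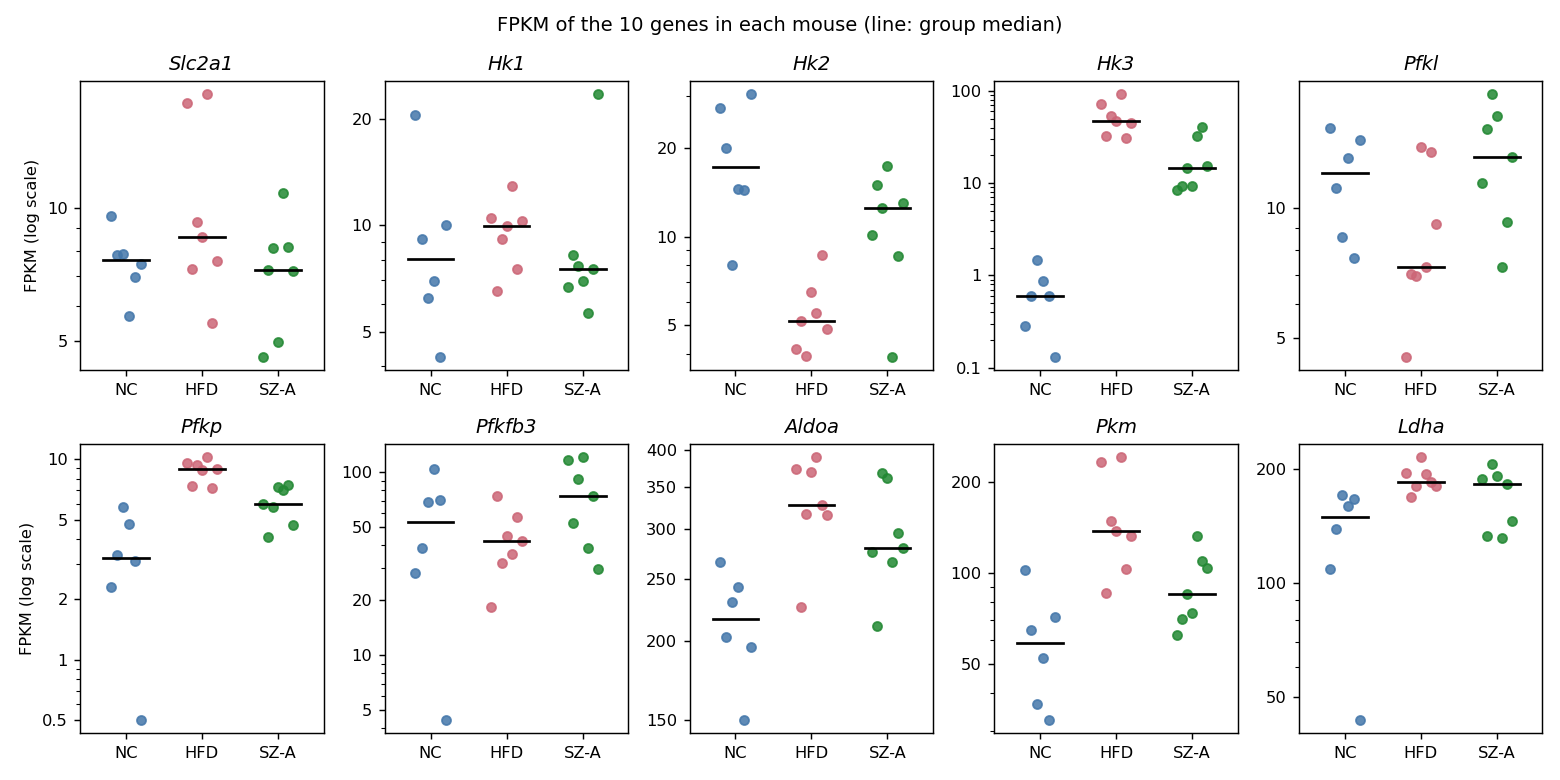
FPKM of each of the 10 genes (panels, log scale) in each mouse, as points by group, with the group median as a line. Hk3 separates NC (at most 1.45 FPKM) from HFD (at least 30.6 FPKM), and NC 6 is the lowest point for Pfkp, Pfkfb3 and Ldha.

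The isoform make-up was followed within each mouse as the share of each gene in the summed FPKM of Hk1, Hk2 and Hk3, a level per exon length. Hk3 made up 0.321% to 9.27% of the sum for NC, 65.4% to 83.3% for HFD and 27.5% to 77.3% for SZ-A, and the NC mice overlapped with neither of the other groups. Hk2 made up 50.9% to 75.0% for NC, 4.75% to 18.5% for HFD and 9.26% to 51.8% for SZ-A. Hk1 made up 22.1% to 42.6% for NC, 11.7% to 17.3% for HFD and 13.2% to 45.3% for SZ-A. The leading isoform was thus Hk2 in each NC mouse and Hk3 in each HFD mouse. Among the SZ-A mice, Hk3 led in SZ-A 3, SZ-A 5 and SZ-A 6, Hk2 led in SZ-A 1, SZ-A 2 and SZ-A 4, and Hk1 led in SZ-A 7. The summed level of the 3 genes was 29.3 ± 12.8 FPKM for NC, 68.3 ± 23.4 for HFD and 39.6 ± 11.4 for SZ-A (SD over mice).

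The log2 ratio of Hk3 to Hk2, each with 1 FPKM added, was compared with a two-sided exact permutation test over mice. It was -3.53 ± 1.06 for NC, 2.99 ± 0.78 for HFD and 0.52 ± 1.39 for SZ-A (SD over 6, 7 and 7 mice). HFD exceeded NC by 6.52 (exact p = 5.8e-04, adjusted over 3 comparisons 8.7e-04), and this p is the smallest that 1716 regroupings allow. SZ-A was below HFD by a difference of -2.47 (exact p = 0.0047, adjusted 0.0047) and above NC by 4.05 (exact p = 5.8e-04, adjusted 8.7e-04). Without NC 6 the differences from NC were 6.26 and 3.80 (exact p = 0.0013 each). In SZ-A 5 and SZ-A 6 the ratio was 2.78 and 2.13, inside the HFD range of 1.71 to 3.84, while the other SZ-A mice lay between -0.84 and 0.24.

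**Figure D3:**
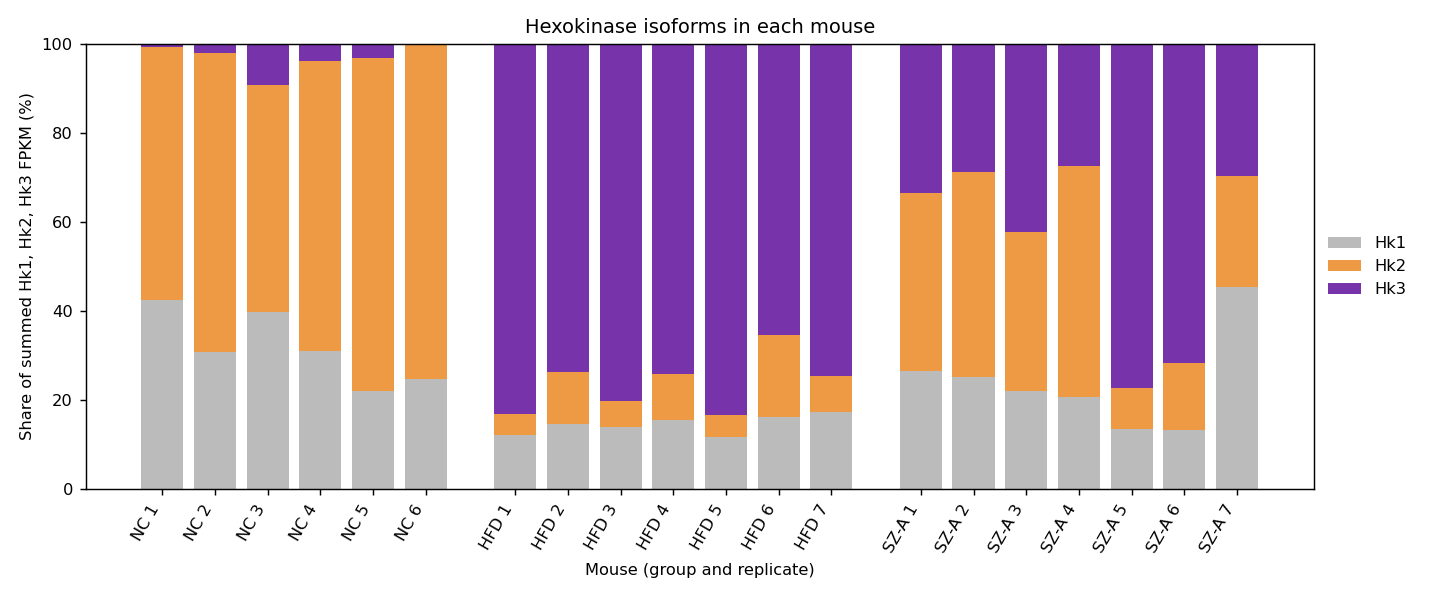
Share of Hk1, Hk2 and Hk3 in their summed FPKM (percent, stacked bars) in each of the 20 mice. Hk3 takes 65.4% to 83.3% in the HFD mice and at most 9.27% in the NC mice, and SZ-A 5 and SZ-A 6, at 77.3% and 71.8%, lie within the HFD range.

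The bases before the start of Hk2 and Hk3 are shown because these isoforms moved in opposite directions. Each line holds the 250 bases upstream of the RefSeq start (build GRCm38.p6, minus strand, written 5′ to 3′), for Hk2 at chr6:82774455-82774704 and for Hk3 at chr13:55021386-55021635.
Hk2: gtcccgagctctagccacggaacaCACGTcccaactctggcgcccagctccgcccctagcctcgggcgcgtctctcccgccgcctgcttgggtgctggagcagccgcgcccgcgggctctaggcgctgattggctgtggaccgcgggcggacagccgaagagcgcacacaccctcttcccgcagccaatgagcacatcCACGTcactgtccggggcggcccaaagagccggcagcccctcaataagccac
Hk3: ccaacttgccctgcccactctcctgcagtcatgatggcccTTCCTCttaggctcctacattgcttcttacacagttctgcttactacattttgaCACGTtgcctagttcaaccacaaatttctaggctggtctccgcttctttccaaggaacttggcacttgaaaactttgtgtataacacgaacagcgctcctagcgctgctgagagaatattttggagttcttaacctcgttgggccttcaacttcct
Capitals mark ACGTG, the core of the hypoxia-response element, and GAGGAA, the core of the site of PU.1, a transcription factor of myeloid cells, on either strand, so that they also read CACGT and TTCCTC. Hk2 held ACGTG at 2 places and no GAGGAA, and Hk3 held each motif at 1 place. The 250 bases before the 2 RefSeq starts of Hk1 held no ACGTG, and 1 of the 2 held GAGGAA. Over 32851 mouse windows of this length, 16.6% held ACGTG and 23.3% held GAGGAA. Among the 16 windows of the 10 genes, 9 held ACGTG, with the most matches before a start of Ldha, and 4 held GAGGAA. Matches on opposite strands overlap where the letters read CACGTG. A match describes letters only, and the start in use in eWAT was not measured.

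Phosphofructokinase commits sugar to glycolysis and has a liver, a platelet and a muscle form. Pfkp, the platelet form (chromosome 13, 6579768 to 6648777, minus strand), was at 0.502, 3.23 and 5.76 FPKM for NC, at 7.20, 8.98 and 10.3 for HFD and at 4.10, 5.97 and 7.43 for SZ-A. HFD and NC did not overlap, and 2 SZ-A mice were above the lowest HFD mouse. Pfkp rose in HFD against NC by 1.32 ± 0.28 on the log2 scale (SE, adjusted p = 0.0019) and by 1.05 without NC 6 (adjusted p = 2.3e-04), which held the lowest value. It fell in SZ-A against HFD by 0.49 ± 0.13 (SE, adjusted p = 0.014). With all 3 groups in a single fit this last call was lost (adjusted p = 0.17).

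Pfkl, the liver form (chromosome 10, 77986947 to 78010083, minus strand), was at 7.67, 12.1 and 15.3 FPKM for NC, at 4.51, 7.31 and 13.9 for HFD and at 7.29, 13.1 and 18.4 for SZ-A. Its median was lowest in HFD, but the 3 groups overlapped. The log2 difference was -0.40 ± 0.24 in HFD against NC (SE, adjusted p = 0.20, and -0.33 without NC 6, adjusted p = 0.29) and 0.53 ± 0.24 in SZ-A against HFD (SE, adjusted p = 0.12). Without SZ-A 5, the library rich in mitochondrial reads, the latter was 0.64 (adjusted p = 0.044) and passed the threshold.

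Pfkfb3 (chromosome 2, 11471433 to 11554077, minus strand) makes fructose 2,6-bisphosphate, the activator of phosphofructokinase. It was at 4.44, 53.7 and 104 FPKM for NC, at 18.3, 42.1 and 74.0 for HFD and at 29.8, 74.1 and 122 for SZ-A. NC 6 held the value of 4.44 FPKM, and the next NC mouse held 28.3. The log2 difference of HFD against NC was 0.09 ± 0.57 (SE, adjusted p = 0.91), and without NC 6 it was -0.47 (adjusted p = 0.29). The sign also turned when HFD 2 was left out. Against HFD, SZ-A mice differed by 0.72 ± 0.34 (SE, adjusted p = 0.14), and 1.01 (adjusted p = 0.041) without the mice high in Krt18. Of the 10 genes, Pfkfb3 had the largest standard errors in the comparisons with NC.

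Aldoa (chromosome 7, 126795234 to 126800751, minus strand), the aldolase that splits fructose 1,6-bisphosphate, had the highest median level of the 10 genes in each group. It was at 150, 216 and 266 FPKM for NC, at 226, 327 and 390 for HFD and at 211, 280 and 368 for SZ-A. The lowest HFD mouse, HFD 2, was within the NC range, and the other HFD mice were above it. Aldoa rose in HFD against NC by 0.63 ± 0.18 on the log2 scale (SE, adjusted p = 0.015), and by 0.61 without NC 6 (adjusted p = 0.017). The SZ-A difference from HFD was -0.17 ± 0.16 (SE, adjusted p = 0.46).

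Pkm (chromosome 9, 59656368 to 59679375), whose product forms pyruvate, was at 32.7, 58.6 and 102 FPKM for NC, at 85.7, 137 and 241 for HFD and at 62.3, 85.2 and 132 for SZ-A. NC 1 (102 FPKM) was the only NC mouse above the lowest HFD mouse, and HFD 1 and HFD 5 were the highest at 232 and 241 FPKM. Pkm rose in HFD against NC by 1.36 ± 0.30 (SE, adjusted p = 0.0028), and by 1.43 without NC 6. With SZ-A it fell by 0.71 ± 0.24 relative to HFD (SE, adjusted p = 0.044). That call was lost when any of HFD 1, 3, 4, 5 or 7 or SZ-A 1, 2, 3, 4 or 7 was left out, with differences from -0.84 to -0.59 and adjusted p of 0.021 to 0.095 over the 14 mice left out in turn. The table gives 1 value for the gene, so the M1 and M2 splice forms of Pkm were not separated.

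Ldha (chromosome 7, 46841475 to 46855627), the lactate dehydrogenase that favours lactate, was at 43.6, 149 and 171 FPKM for NC, at 169, 185 and 215 for HFD and at 131, 183 and 207 for SZ-A. NC 6 was lowest, and NC 3 (171 FPKM) was the NC mouse that reached the HFD range. The log2 difference of HFD against NC was 0.64 ± 0.27 (SE, adjusted p = 0.077), and 0.35 without NC 6 (adjusted p = 0.055). The difference of SZ-A from HFD was -0.18 ± 0.13 (SE, adjusted p = 0.34), with a 95% interval of -0.46 to 0.10.

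The genes whose levels were most like those of each hexokinase were read from Pearson's correlation of log2(FPKM + 1) over the 20 mice, among 14716 genes. The points share library and group, so group differences alone can raise the value, and it is a description. For Hk3 they were Adam8 (r = 0.995), Cd68 (0.995), Kcnab2 (0.994), Myo1f (0.994) and Slc37a2 (0.993). Adam8 is a metalloprotease gene of leukocytes, Cd68 is a macrophage lysosome marker, and Slc37a2 carries sugar phosphate. After the group means were taken out, these values were 0.957, 0.931, 0.959, 0.920 and 0.909. For Hk2 they were Bod1 (0.953), Sort1 (0.952), Bphl (0.943), Lyplal1 (0.934) and Fdft1 (0.933), and the values within groups ran from 0.828 to 0.912. Sort1 encodes sortilin, a sorting receptor of GLUT4 vesicles, and Fdft1 encodes squalene synthase. For Hk1 they were Haspin (0.900), Nfkbib (0.889), Ash2l (0.875), Kif2c (0.871) and Ppm1g (0.857), of which Haspin encodes a histone kinase of mitotic and germ cells. Within groups the Hk1 values ran from 0.863 to 0.917. Hk1 was at 20.5 FPKM in NC 1 and 23.5 in SZ-A 7, against at most 12.9 in the other mice. Its correlations can rest on NC 1 and SZ-A 7, and were not computed without them.

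**Figure D4:**
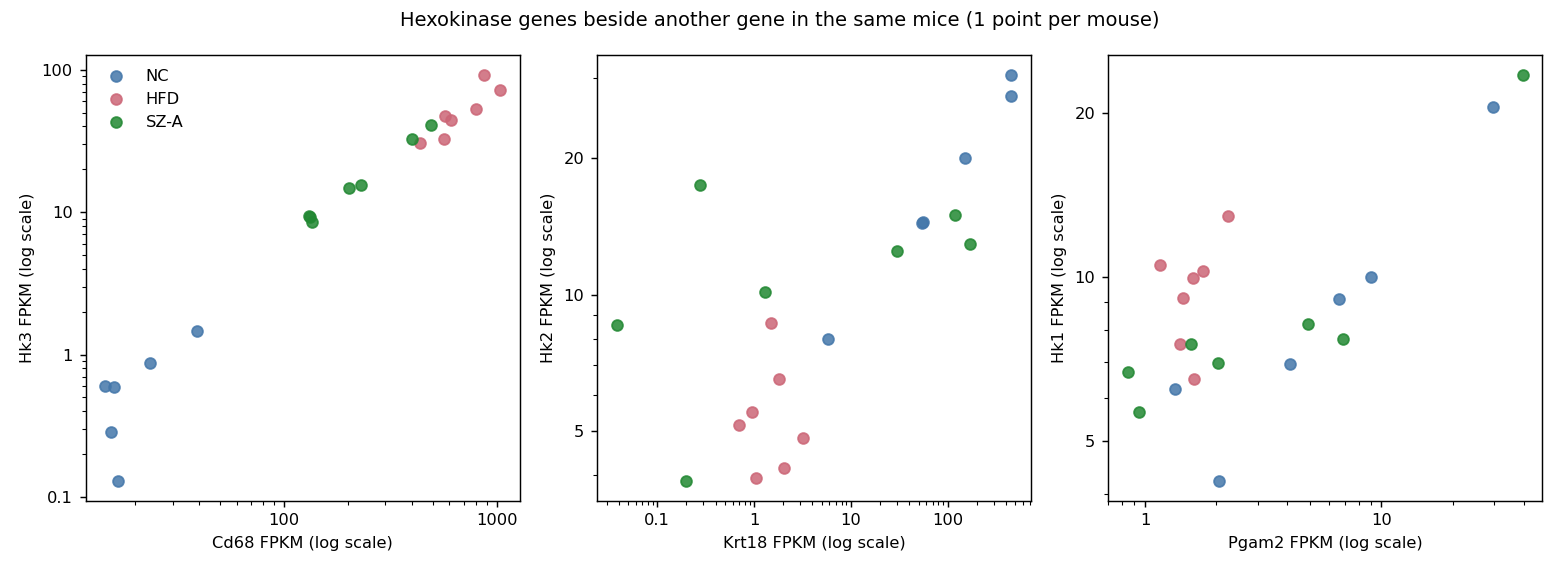
FPKM of Hk3 against Cd68, of Hk2 against Krt18 and of Hk1 against Pgam2 in the same mice (log scales, 1 point per mouse, coloured by group). Hk3 rises with Cd68 across mice from 14.4 to 1039 FPKM of Cd68, and the highest Hk1 points are NC 1 and SZ-A 7, whose Pgam2 was 29.7 and 39.6 FPKM.

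Cell type markers moved with the same comparisons. Beside their counts, 21.0% of all genes were called higher and 20.1% lower in HFD against NC. In SZ-A against HFD, 9.47% and 13.3% were. Of 15 macrophage markers, 14 rose in HFD against NC (13 without NC 6) and 13 fell in SZ-A against HFD, with a summed level of 95.9 to 922 FPKM for NC, 4177 to 11162 for HFD and 1658 to 5521 for SZ-A. The SZ-A mice with the highest macrophage sums, SZ-A 5 and SZ-A 6 (5521 and 4389 FPKM), were also those with the highest Hk3. Cd68 rose by 5.05 in HFD against NC (adjusted p = 2.0e-08) and fell by 1.64 in SZ-A against HFD (adjusted p = 0.0029). For the macrophage receptor gene Adgre1 the values were a rise of 5.16 (adjusted p = 4.9e-07) and a fall by 1.86 (adjusted p = 3.8e-04). The part of the macrophage content in the Hk3, Pfkp and Pkm differences was not tested.

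Of 12 adipocyte markers, 1 was higher and 3 lower in HFD than in NC, and 1 higher and 9 lower once NC 6 was left out. After SZ-A, 3 were higher and 0 lower than in HFD. Their sum was 464 FPKM in NC 6 and 8085 to 20845 in the other NC mice, 997 to 5007 for HFD and 3462 to 11815 for SZ-A. Of 9 neutrophil markers only 2 were in the table, with sums of 0.365 to 8.35 FPKM for NC, 6.80 to 17.5 for HFD and 5.02 to 22.5 for SZ-A. S100a8, a calprotectin gene of neutrophils, rose by 1.18 in HFD against NC (adjusted p = 0.046), and the difference was 0.86 without NC 6 (adjusted p = 0.077). Of 8 fibroblast progenitor markers, 6 rose and 1 fell in HFD against NC, and 7 fell in SZ-A against HFD. In these comparisons 0 of 8 endothelial markers were called in HFD against NC (2 lower without NC 6) and 2 rose in SZ-A against HFD, and 0 and 1 of the 5 T and B cell markers present were called. Of the 4 skeletal muscle markers present, 1 rose in each of these comparisons (without NC 6, 1 was also lower in HFD), and of the 2 mesothelial markers present, 1 fell in HFD against NC.

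The rest of the route was read from genes outside the 10. Over all genes, 21.0% were called higher and 20.1% lower in HFD against NC, and 9.47% and 13.3% in SZ-A against HFD. Of 17 other glycolysis enzymes, 12 were in the table, of which 4 rose and 4 fell in HFD against NC (median difference 0.35, and -0.04 over all genes). The rises were in Pgk1, Pgam1, Eno1 and Eno2 and the falls in Pfkm, Pgam2, Eno3 and Ldhb. For the enolases, Eno1, the general form, rose by 0.91 ± 0.15 (SE, adjusted p = 2.7e-04) and Eno2, known from neurons, by 1.11 ± 0.14 (SE, adjusted p = 3.4e-05). Ldhb, the lactate dehydrogenase that favours pyruvate, was at 38.3 to 184 FPKM in NC and at 10.4 to 19.2 FPKM in HFD, with no overlap. Its log2 difference was -2.62 ± 0.32 (SE, adjusted p = 2.6e-05) in HFD against NC and 1.24 ± 0.29 (SE, adjusted p = 0.0088) in SZ-A against HFD. Of the mice high in Krt18, SZ-A 2 (63.7 FPKM) and SZ-A 7 (57.0) had the highest Ldhb of SZ-A and NC 6 (184) the highest of NC. NC 1, also high in Krt18, held 63.5 FPKM, below NC 5 at 140. The part of other tissue in the Ldhb values was not tested. Pfkm, the muscle phosphofructokinase, fell by 0.47 ± 0.17 in HFD against NC (SE, adjusted p = 0.043), but the difference was -0.41 without NC 6 (adjusted p = 0.073).

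In SZ-A against HFD, Ldhb and Eno3 rose and Pgk1 and Pgam1 fell, while 8 of the 12 enzymes passed in neither direction. The muscle enolase Eno3 was at 34.5 FPKM in SZ-A 5 and at most 8.40 in the other SZ-A mice. In SZ-A against NC only Eno1 of these enzymes was called, and it was higher. Adpgk, a glucokinase that uses ADP, differed by 0.10 in HFD against NC (adjusted p = 0.30) and by -0.08 in SZ-A against HFD (adjusted p = 0.41), with 2.44 to 3.22 FPKM over all mice. Gapdh was listed at only 0.223 to 17.1 FPKM, far below its neighbours on the route. It has many near-identical copies in the mouse genome that can take its reads, so its differences are not described. Gapdh is still among the 12 enzymes in the counts and medians above, and it was called in no comparison. Aldoa, Ldha, Pgk1, Pgam1 and Eno1 also have copies elsewhere in the genome, and their levels are less certain for that reason.

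**Figure D5:**
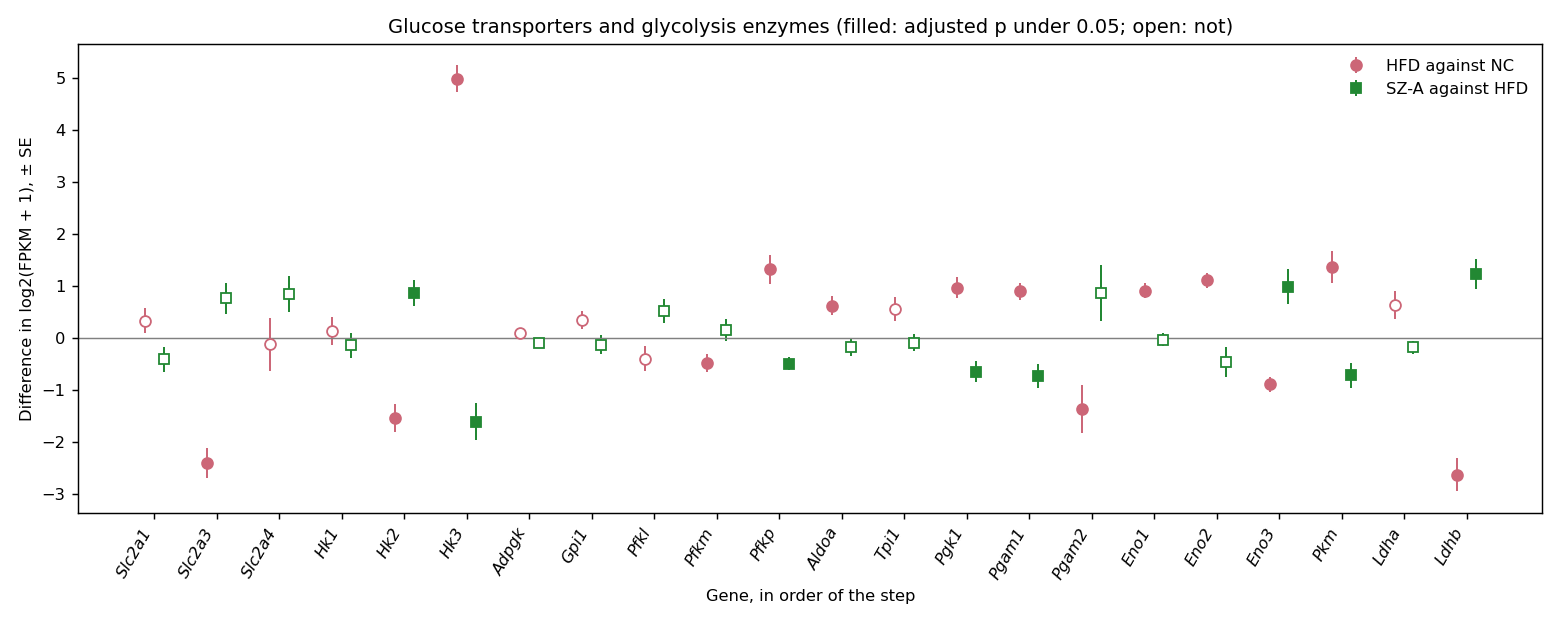
Difference in log2(FPKM + 1), ± SE, of glucose transporters and glycolysis enzymes in order of the step, for HFD against NC (circles) and SZ-A against HFD (squares). Filled symbols passed an adjusted p of 0.05. Hk3 is the highest circle (4.98) and Ldhb the lowest (-2.62).

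The lists that follow are set beside all genes, of which 21.0% rose and 20.1% fell in HFD against NC. In SZ-A against HFD 9.47% rose and 13.3% fell, and the medians over all genes were -0.04 and 0.03. Among regulators of flux, 1 of the 6 measured rose and 2 fell in HFD against NC, and 2 rose and 1 fell in SZ-A against HFD (median differences -0.08 and 0.07). Without NC 6, 3 fell in HFD against NC, the added gene being Pfkfb1, another sister enzyme of Pfkfb3, whose difference went from -0.65 (adjusted p = 0.21) to -1.04 (adjusted p = 0.0040). Pfkfb4, a sister enzyme of Pfkfb3, rose by 2.12 ± 0.24 (SE, adjusted p = 1.2e-05) in HFD against NC and fell by 1.03 ± 0.21 in SZ-A against HFD (SE, adjusted p = 0.0042). Bpgm, which makes 2,3-bisphosphoglycerate, moved the other way, with -0.87 (adjusted p = 0.0026) and 1.02 (adjusted p = 0.0012). Pfkfb2 fell by 0.37 in HFD against NC (adjusted p = 0.016). Hif1a, the oxygen-regulated factor that drives many glycolysis genes, differed by 0.21 (adjusted p = 0.29) and -0.23 (adjusted p = 0.23). Of 13 hypoxia-response genes outside glycolysis, 2 rose and 4 fell in HFD against NC, and 4 rose and 1 fell in SZ-A against HFD (median differences -0.27 and 0.50). Car9, a carbonic anhydrase gene, rose by 1.60 in HFD against NC (adjusted p = 1.1e-06) and fell by 0.91 in SZ-A against HFD (adjusted p = 0.0085). In HFD against NC, P4ha1, a collagen prolyl hydroxylase gene, rose by 1.33 (adjusted p = 0.0065), whereas Egln3, a hydroxylase of HIF, fell by 2.19 (adjusted p = 1.3e-04).

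Of 12 transporters of sugar and monocarboxylates measured, 2 rose and 4 fell in HFD against NC, and 1 rose and 1 fell in SZ-A against HFD (median differences -0.20 and 0.14). The shares of all genes were 21.0% and 20.1%, and 9.47% and 13.3%, as given above. Slc2a3 (GLUT3), a high-affinity glucose carrier, was at 3.52 to 20.6 FPKM in NC and 0.894 to 1.29 in HFD with no overlap, and fell by 2.39 ± 0.29 (SE, adjusted p = 2.4e-05). Of the mice high in Krt18, SZ-A 7 (9.03 FPKM) and SZ-A 2 (4.61) had the highest Slc2a3 of SZ-A. NC 2 (20.6) and NC 1 (14.8) were the highest of NC, whereas NC 6 held 7.08. The part of other tissue in the Slc2a3 values was not tested. Slc2a9, a urate carrier, rose by 0.69 in HFD against NC (adjusted p = 1.9e-04) and fell by 0.55 in SZ-A against HFD (adjusted p = 0.0023), and Slc2a8 fell by 0.75 in HFD against NC (adjusted p = 3.2e-04). Slc2a6 (GLUT6) rose by 0.93 in HFD against NC (adjusted p = 6.6e-04). Slc2a4 was at 1.24 to 28.8 FPKM for NC, 4.03 to 20.5 for HFD and 10.8 to 43.9 for SZ-A, with log2 differences of -0.12 in HFD against NC (adjusted p = 0.88, and -0.62 without NC 6, adjusted p = 0.13) and 0.85 in SZ-A against HFD (adjusted p = 0.081).

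Beyond pyruvate, 1 of 14 genes of its entry into mitochondria rose and 4 fell in HFD against NC, and 2 rose and 0 fell in SZ-A against HFD (median differences -0.35 and 0.11). Without NC 6 the falls in HFD against NC were 7. With all mice, 21.0% of all genes rose and 20.1% fell in HFD against NC, and 9.47% and 13.3% in SZ-A against HFD. Pdk2, a kinase that switches off pyruvate dehydrogenase, fell by 2.29 ± 0.21 in HFD against NC (SE, adjusted p = 2.6e-06) and rose by 1.26 ± 0.19 in SZ-A against HFD (SE, adjusted p = 8.2e-04), with no overlap in either. Pdp2, the opposing phosphatase, fell by 0.70 (adjusted p = 0.0017) and Pdk1 by 0.71 (adjusted p = 0.012) in HFD against NC. Of 8 genes of the pentose phosphate pathway, which branches off after hexokinase, 2 rose and 1 fell in HFD against NC and 0 were called in SZ-A against HFD (median differences 0.03 and 0.03). Pgd rose by 1.24 (adjusted p = 2.0e-04) and G6pdx by 0.66 (adjusted p = 0.011), and Rpia fell by 0.34 (adjusted p = 0.019). Without NC 6 there were 2 falls, the second in Rpe (-0.31, adjusted p = 0.023).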

How the data were processed

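RNA from the eWAT of 20 mice was grouped by the labels (6 NC, 7 HFD and 7 SZ-A), whereas 7 for each group are given in the methods of the study. Poly(A) RNA was sequenced in pairs of reads and aligned by HISAT2 to GRCm38. The authors deposited FPKM of 14776 genes, each above 0 in every mouse. The submitters' processing notes name featureCounts 1.5.0-p3. The filter on genes is not given in the sources used here. Gene symbols, positions and exon lengths came from GENCODE release M21, which held 14770 of the genes.

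HFD against NC, SZ-A against HFD and SZ-A against NC were each fitted with limma 3.58.1 in R 4.3.3 (lmFit, eBayes with a variance trend) on log2(FPKM + 1). Genes averaging under 0.1 FPKM in the mice of a comparison were left out, with Benjamini-Hochberg adjustment over all genes tested. A fold change on this scale understates the change of low genes. Exact permutation tests were computed with NumPy over each regrouping of the mice. The p-values measure the spread between mice of these groups, and the labels give no batch or date.

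Multiplied by exon length, 95.9% to 96.3% of the deposited values under 1000 reads were whole multiples of a step per mouse within 0.01 reads. Reads recovered in this way entered only an alternative with voom, whose calls are counted with the other alternatives. The library size behind the step was not a plain count of reads. In HFD 1 it was 15406890, below the 17216017 reads on the genes of the table. Median-ratio factors of the deposited values ran from 0.994 (HFD 1) to 1.023 (SZ-A 2), so the alternative with median-ratio scaling could change little. In data simulated for HFD against NC over 14700 genes, 187 of 200 genes changed by a log2 fold change of 2 were called, as were 4 unchanged genes.

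The members and gene lists were chosen with earlier results of these data known. The genes named are the 10, up to 3 genes per further list by smallest adjusted p, 13 further genes (Slc2a4, Slc2a3, Slc2a6, Pfkm, Gapdh, Hif1a, Adpgk and the markers Adgre1, Cd68, Adipoq, Plin1, S100a8 and Krt18) and the 5 genes nearest to each hexokinase. Adgrg2, Pgam2, Eno3 and other genes listed by name for a count were chosen after their values were seen. Alternatives used pseudocounts of 0.1 or 0.01, a filter at an average of 1 FPKM or none, quantile and median-ratio scaling, all 3 groups in a fit, array quality weights, voom, an exact permutation test per gene, the replicate number as a block, leaving out each mouse and, chosen after seeing the data, leaving out mice with Krt18 above 100 FPKM. Promoter windows came from RefSeq on GRCm38.p6, where 10 of 10 genes matched. Python 3.11.15 was used with NumPy 2.4.6, pandas 2.3.3 and, for plots, matplotlib 3.10.9.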

Additional observations from a re-analysis of the deposited data

Results flagged for a closer look

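Hk1 in NC 1 (20.5 FPKM) and in SZ-A 7 (23.5 FPKM) lay far above the other mice of their groups, which held at most 10.01 and 8.22 FPKM. The gap to the nearest mouse was 0.646 of the group's whole range in NC and 0.856 in SZ-A, past Dixon's 95% critical value for groups of this size. They were 2 of 30 groups of values examined, and chance gives about 1 in 20. Both libraries also had Krt18 above 100 FPKM and the highest Pgam2.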

How the results depend on the processing

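The log2 ratio of Hk3 to Hk2 kept its direction and an exact p under 0.05 in each of 55 alternatives. Of 760 alternative values for single genes, 713 kept direction and side of the threshold. With the sign kept, 18 lost and 11 gained a call. Another 18 changed sign, all 18 in differences that were not called with the settings above. Among these, Pfkfb3 in HFD against NC was called with the turned sign without the mice high in Krt18 (-0.97, adjusted p = 0.037). In SZ-A against HFD, 2 of the 10 genes were called with all 3 groups in the fit and 2 with the exact permutation test, and over all genes 2089 were called with all 3 groups and 6403 with array quality weights, against 3349. In SZ-A against NC, 2 of the 10 were called with all 3 groups and 3 with array quality weights. Over all genes in SZ-A against NC, 678 were called, 1527 with all 3 groups, 2639 with array quality weights, 180 without mice high in Krt18, and 423 to 860 as each mouse was left out, with 441 without NC 1, 423 without NC 2 and 425 without SZ-A 6. The causes were not tested.

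Replicate numbers are shared between groups but did not pair the mice: correlations of deviations between mice of the same number ran from -0.41 to 0.58. Over the 3 comparisons there were 19 pairs of the same number. In 4 of the 19, the mouse of the first group correlated best with its own number in the second group. With the number as a replicate block, 4, 3 and 1 of the 10 genes were called in HFD against NC, SZ-A against HFD and SZ-A against NC, and 4423, 2619 and 173 of all genes. The Hk3 to Hk2 differences were then 6.52, -2.47 and 4.10 (exact sign-flip p = 0.031 each). In the comparisons with NC, which share 6 numbers, this p is the smallest that the sign-flip test allows. In SZ-A against HFD, which share 7 numbers, it is not the smallest. Aldoa in HFD against NC (adjusted p = 0.069) and Pkm in SZ-A against HFD (adjusted p = 0.051) were not called under the replicate block.

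Signs changed for Hk1 in HFD against NC (-0.040 to 0.37 as each mouse was left out), for Hk1 in SZ-A against NC (-0.033 with quantile scaling, -0.0074 with median-ratio scaling, -0.028 with array weights, -0.061 with voom, -0.23 with the replicate block, and -0.23 to 0.24 as mice were left out), for Pfkfb3 in HFD against NC (-0.0024 with quantile scaling, -0.43 with array weights, -0.97 without mice high in Krt18, and -0.47 to 0.38 as mice were left out) and for Slc2a1 in SZ-A against NC (0.041 without mice high in Krt18, and -0.16 to 0.017 as mice were left out). Ldha in HFD against NC was called in 3 alternatives. Hk3 in NC rests on at most 86 reads per mouse, which limits the precision of its fold changes.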

Other observations

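The balance of the lactate dehydrogenase genes was not compared by a test. Ldha was at least 169 FPKM and Ldhb at most 19.2 FPKM in each HFD mouse, whereas in NC 6 Ldhb (184 FPKM) exceeded Ldha (43.6 FPKM). Eno2 was at 7.84 FPKM in SZ-A 5, and at most 3.20 FPKM in all other mice. In the same library Gpi1 was at 64.0 FPKM against at most 51.4 FPKM elsewhere, and Pgam1 was at 25.2 FPKM against at least 40.6 FPKM elsewhere.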
